A study of Mus musculus with 16 samples.

Results

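The neural basic helix-loop-helix (bHLH) factor genes comprised 9 genes, Neurog1, Neurog2, Neurog3, Atoh1, Neurod1, Neurod2, Neurod4, Olig1 and Olig2, out of 25755 gene symbols with a curated RefSeq transcript. They were chosen by name, and each was described by the peaks within 2500 bp on either side of its transcription start site and over its body. Chromatin immunoprecipitation and sequencing (ChIP-seq) of H3K4me3, H3K27me3 and Suz12 had been done in mouse embryonic stem cells (ESCs) of the R1 line carrying MycER, a fusion of the MycT58A mutant with the oestrogen receptor that 4-hydroxytamoxifen (OHT) activates. LIF-ESCs were kept with 100 units per ml of leukemia inhibitory factor (LIF), and Myc-ESCs were kept without LIF in 50 nM OHT. Both cultures carried the MycER transgene, grew without feeder cells on gelatin with serum and vitamin C, and are a model of a single engineered line. The comparison between them addressed how chromatin differed between ESCs maintained by LIF and by active MycER, and LIF and OHT changed together, so their effects cannot be told apart.

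The labels named 16 libraries, of which 4 were inputs and the rest came in pairs, and the 6 peak lists held 1 for each combination of culture and antibody. There was thus no replicate list, the read depth behind each list is unknown, and no difference below could be set against replicate error or tested. Of 8 ESC marker genes (Pou5f1, Sox2, Nanog, Klf4, Esrrb, Zfp42, Tfcp2l1 and Dppa3), 8 had H3K4me3 at the start site in each culture. Of these, H3K27me3 lay at 1 gene (LIF-ESCs) and 3 genes (Myc-ESCs). H3K4me3 was also at 62.7% (LIF-ESCs) and 63.9% (Myc-ESCs) of all genes, so its presence does not test ESC identity. Its top peak score was lower in Myc-ESCs at Nanog (804.29 against 3100.0), Klf4 (1622.78 against 3100.0), Esrrb (721.83 against 3100.0) and Tfcp2l1 (1258.51 against 3100.0). That score was 3100.0 in both cultures at Pou5f1, Sox2 and Zfp42, and higher in Myc-ESCs at Dppa3 (374.5 against 226.34). Because 3100.0 recurs as a top score, equal values there leave little room to show a difference. H3K4me3 covered fewer bases in Myc-ESCs at Zfp42 (4192 against 5001) and Pou5f1 (7134 against 7776), and 5001 in both at Sox2. The H3K27me3 list held 3120 peaks over 0.690 Mb in LIF-ESCs but 16717 peaks over 3.81 Mb in Myc-ESCs, and the part of that gap in the H3K27me3 differences below was not tested. The Suz12 lists held 11305 and 13907 peaks, and the H3K4me3 lists 32469 and 30345, given here and below with LIF-ESCs first. In bulk cells, marks at the same start site cannot be told apart from marks in different cells, nor a mark in fewer cells from a weaker mark.

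Proneural bHLH factors bind the E-box as dimers with ubiquitous E proteins and commit progenitors to a neuronal fate, and Id and Hes proteins oppose them. Neurog1, Neurog2 and Atoh1 act early as determination factors, Neurog3 is best known for founding the endocrine cells of the pancreas, the Neurod genes act later in differentiating neurons, and Olig1 and Olig2 specify oligodendrocytes and motor neurons. In ESCs such lineage genes are typically silent and held by Polycomb repressive complex 2 (PRC2), of which Suz12 is a subunit and H3K27me3 the product. Where H3K4me3, a mark of promoters, lies at the same start site, the gene is called bivalent.

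Polycomb binding in ESCs is known to favour start sites rich in CpG, so promoters that differ in CpG are shown first. Those shown are the richest and the poorest found, and that of Atoh1 between them. They run from 250 bases before to 50 after the start site, and were taken from RefSeq on GRCm38.p6. Capitals mark each CG. The Neurog1 promoter (chr13:56252131-56252430, minus strand) held Suz12 in both cultures and was the richest of the group, with 32 CpG. The Atoh1 promoter (chr6:64728875-64729174, plus strand) had 20 CpG, and all 3 marks lay within 2500 bp of its start site in both cultures. The Neurod4 promoter (chr10:130280205-130280504, minus strand), at the outer of 2 annotated start sites, lay under no peak of any list and had 4 CpG.
Neurog1 promoter: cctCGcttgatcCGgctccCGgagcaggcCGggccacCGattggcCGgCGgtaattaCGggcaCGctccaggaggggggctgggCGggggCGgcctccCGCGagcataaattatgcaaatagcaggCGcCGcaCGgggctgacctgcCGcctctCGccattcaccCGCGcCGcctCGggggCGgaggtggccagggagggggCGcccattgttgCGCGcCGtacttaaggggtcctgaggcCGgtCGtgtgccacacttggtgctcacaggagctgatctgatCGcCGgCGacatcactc
Atoh1 promoter: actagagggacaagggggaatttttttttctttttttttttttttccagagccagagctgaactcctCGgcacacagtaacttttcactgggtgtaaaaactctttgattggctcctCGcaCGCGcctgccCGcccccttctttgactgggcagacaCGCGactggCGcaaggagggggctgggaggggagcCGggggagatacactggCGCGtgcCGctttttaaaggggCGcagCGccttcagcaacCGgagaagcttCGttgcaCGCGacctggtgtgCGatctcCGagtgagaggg
Neurod4 promoter: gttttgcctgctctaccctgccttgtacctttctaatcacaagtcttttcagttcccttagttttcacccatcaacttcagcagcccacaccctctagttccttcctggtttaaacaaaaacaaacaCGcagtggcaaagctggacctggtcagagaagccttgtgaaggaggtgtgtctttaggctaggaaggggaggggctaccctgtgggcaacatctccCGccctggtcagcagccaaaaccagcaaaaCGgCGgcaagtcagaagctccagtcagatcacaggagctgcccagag

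Promoter sequences were found for 8 of the 9 genes, all but Olig1, which gave 9 promoters. Their CpG ratio, the observed number of CpG over the number that the base composition would give, was 0.89 in Neurog1, 0.84 in Neurod1 and Atoh1, 0.82 in Olig2, 0.70 in Neurod2, 0.57 in Neurog2 and 0.55 in Neurog3. The 2 promoters of Neurod4 had the lowest ratios, 0.20 and 0.32. Over 3857 promoters of genes with Suz12 in either culture the median ratio was 0.68, and over 12499 with H3K4me3 but no Suz12 it was 0.74. Over the 6947 promoters with neither it was 0.17, so both Neurod4 promoters lay far below the median of the marked classes. The E-box, searched as CANNTG, which reads the same on both strands, was present in the promoters of Neurog1, Neurog3, Neurod1 and Neurod2 and in 1 of the 2 of Neurod4, against 69.7% of 23303 promoters in all. Neurod2 held 3 matches, and the promoters of Neurog2, Atoh1 and Olig2 held none within this window.

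**Figure D1:**
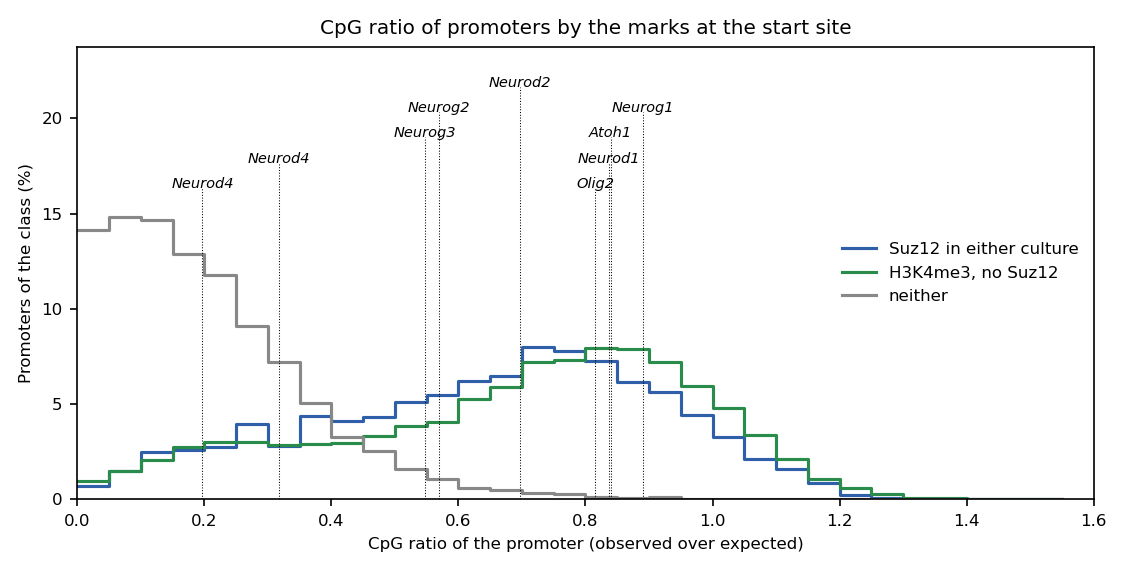
CpG ratio of promoters (observed over expected, x axis) against the percentage of promoters in each class (y axis), for genes with Suz12 in either culture (blue), H3K4me3 without Suz12 (green) or neither (grey), with dotted lines at the 9 promoters of the bHLH genes. Neurog1 lies at 0.89, and the 2 Neurod4 promoters, at 0.20 and 0.32, lie where unmarked promoters are frequent.

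The 5 start sites where H3K27me3 was called in a single culture are shown by the highest-scoring short H3K27me3 peak upstream of each. Only upstream peaks were eligible, but each was also the highest-scoring H3K27me3 peak of its window. Sequences were read from GRCm38.p6 on the strand of the gene, again with CG in capitals. The peak at Neurog1 (chr13:56254108-56254378, minus strand), 271 bp long, had a score of 122.62, where the score is the deposited significance of a peak on a log scale, at least 50.0 in every list. The peak at Neurod1 (chr2:79457589-79457719, minus strand) scored 57.6, that at Neurod2 (chr11:98330669-98330824, minus strand) 72.35, and that at Olig2 (chr16:91223607-91223834, plus strand) 106.6. All 4 came from Myc-ESCs. The peak at Neurog3 (chr10:62130793-62130932, plus strand) came from LIF-ESCs and scored 70.9.
Neurog1 H3K27me3 peak: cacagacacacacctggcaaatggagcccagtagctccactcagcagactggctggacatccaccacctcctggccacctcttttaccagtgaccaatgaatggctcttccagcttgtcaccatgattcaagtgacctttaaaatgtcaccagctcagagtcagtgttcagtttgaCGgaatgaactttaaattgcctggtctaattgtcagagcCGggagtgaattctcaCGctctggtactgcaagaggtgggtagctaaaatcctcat
Neurod1 H3K27me3 peak: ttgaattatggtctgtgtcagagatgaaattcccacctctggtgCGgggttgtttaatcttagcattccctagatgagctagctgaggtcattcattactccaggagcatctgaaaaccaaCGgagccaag
Neurod2 H3K27me3 peak: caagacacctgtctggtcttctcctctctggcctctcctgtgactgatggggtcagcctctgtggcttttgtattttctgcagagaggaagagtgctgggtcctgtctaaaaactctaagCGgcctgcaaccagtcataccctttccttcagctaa
Olig2 H3K27me3 peak: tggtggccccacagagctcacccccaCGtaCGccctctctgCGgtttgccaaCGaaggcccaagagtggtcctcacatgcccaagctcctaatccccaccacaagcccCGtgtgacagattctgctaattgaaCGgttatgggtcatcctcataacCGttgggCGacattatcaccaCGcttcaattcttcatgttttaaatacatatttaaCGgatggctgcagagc
Neurog3 H3K27me3 peak: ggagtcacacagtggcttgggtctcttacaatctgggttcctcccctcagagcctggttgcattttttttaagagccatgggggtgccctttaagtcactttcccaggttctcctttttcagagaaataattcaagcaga

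All 5, chosen among upstream peaks, were poorer in CpG than the promoter of the same gene. The CpG ratio was 0.19 in the Neurog1 peak, 0.29 in the Neurod1 peak and 0.10 in the Neurod2 peak. The Neurog3 peak held 0 CpG in 140 bases. The Olig2 peak, with 10 CpG in 228 bases and a ratio of 0.67, was the richest of the 5, below the 0.82 of its promoter. Over the H3K27me3 peaks at the start sites of the bHLH genes without Olig1 (7 and 18 peaks) the median ratio was 0.37 in LIF-ESCs and 0.36 in Myc-ESCs, beside 0.30 and 0.28 over the H3K27me3 peaks of all genes, so the low CpG content of these peaks was shared by the lists at large. Suz12 peaks at the same genes (34 and 17) had medians of 0.51 and 0.42, beside 0.55 and 0.54 over all genes.

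At the start sites, 8 of the 9 genes held Suz12 in both cultures, and the exception in each was Neurod4. Over all genes the share with Suz12 was 12.2% and 14.7%. H3K4me3 was present at 7 of 9 and 8 of 9, where 62.7% and 63.9% of all genes held it. H3K27me3 was called at 4 of 9 in LIF-ESCs (Neurog2, Neurog3, Atoh1 and Olig1) and at 7 of 9 in the Myc-ESC list, against 3.84% and 10.8% of all genes. The same genes, 4 of 9 and 7 of 9, had all 3 marks within the window, against 2.80% and 8.94%. The marks did not always share bases. Inside H3K4me3 peaks lay 0 of 1482 H3K27me3 bases in LIF-ESCs and 36.2% of 3949 in Myc-ESCs, beside 51.7% and 58.5% over all genes with both marks.

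H3K27me3 was found in Myc-ESCs only at 4 of the 9, namely Neurog1, Neurod1, Neurod2 and Olig2, against 7.69% of all genes. All 4 held Suz12 without an H3K27me3 peak in LIF-ESCs, and of all 2314 genes in that state 58.1% had H3K27me3 in Myc-ESCs. Among genes in that LIF-ESC state, the count of 4 of 4 therefore stands against a high background. The opposite pattern was found at 1 of 9, Neurog3, against 0.738% of all genes. Of 823 genes with both Suz12 and H3K27me3 in LIF-ESCs, 10.8% had no H3K27me3 in Myc-ESCs, beside 1 of the 4 genes of the group in that state. H3K4me3 was found in Myc-ESCs only at 1 of 9, Neurog1, against 2.36% of all genes, and the reverse at 0 of 9, against 1.20%. Suz12 was found in a single culture at 0 of 9 in either direction, where 3.83% of all genes had it in Myc-ESCs alone and 1.29% in LIF-ESCs alone. The H3K27me3 calls depended on the peaks admitted. At a score of at least 100 the 4 genes with H3K27me3 in Myc-ESCs only were Neurog1, Neurog2, Olig1 and Olig2, against 3.37% of all genes, and Neurog3 had none in either culture (LIF-ESCs only, 0 of 9 against 0.0699%). With both H3K27me3 lists limited to their best 3120 peaks, the start-site peaks of Neurod1 and Neurod2 dropped out. Myc-ESC H3K27me3 peaks over both of these gene bodies remained. At the start sites, Neurog1 and Olig2 were then the genes with H3K27me3 in Myc-ESCs only, against 1.76% of all genes. Neurog3 was the gene with it in LIF-ESCs only, against 2.04%.

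Over the gene bodies, Suz12 was called at 8 of 9 in each culture (12.5% and 15.3% of all genes), and H3K4me3 at 7 and 8 of 9 (65.4% and 66.5%). H3K27me3 lay over 3 bodies in LIF-ESCs, those of Atoh1, Neurod2 and Olig1, against 4.07% of all genes. In Myc-ESCs it lay over 5, those of Neurog2, Atoh1, Neurod1, Neurod2 and Olig2, against 11.2%. Neurog1 had 4 H3K27me3 peaks at its start site and 0 over its body in Myc-ESCs.

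**Figure D2:**
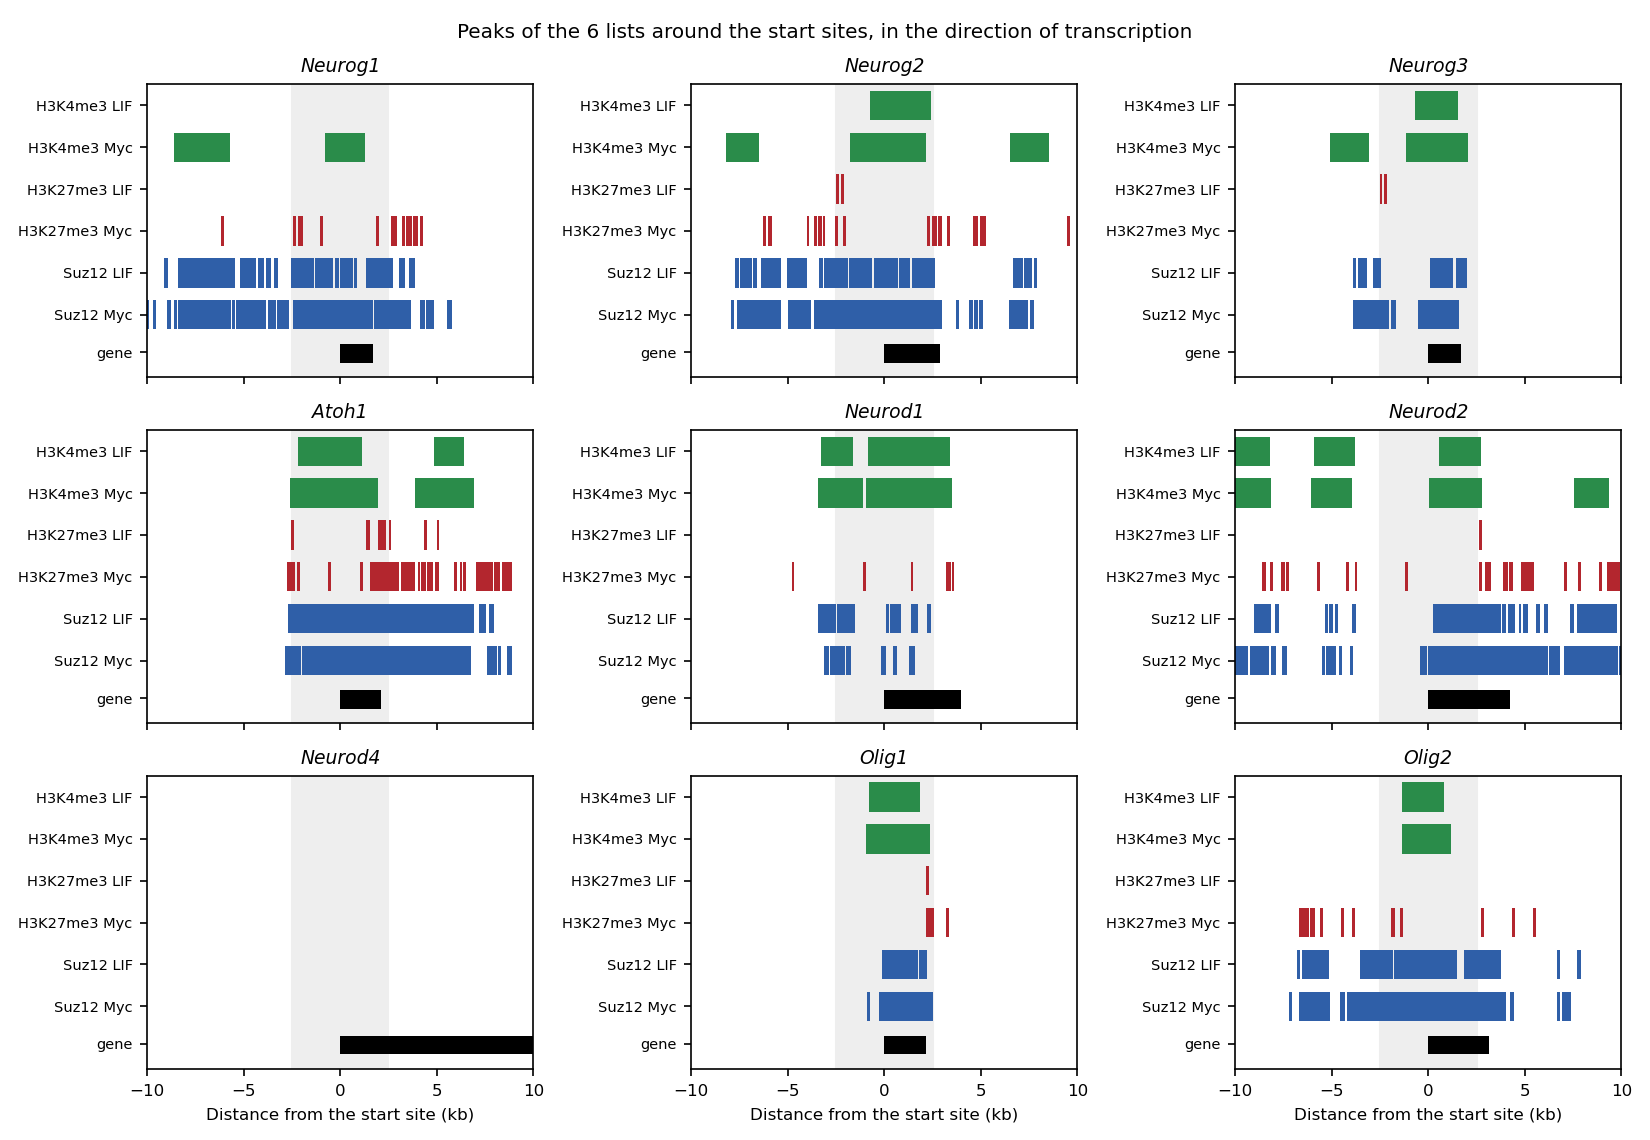
Peaks of the 6 lists (rows, green H3K4me3, red H3K27me3, blue Suz12, LIF-ESCs above Myc-ESCs) by distance from the start site in kb (x axis, in the direction of transcription) for the 9 genes, with the gene as a black bar and the 2500 bp on either side in grey. H3K27me3 peaks lie beside the start site and Suz12 peaks lie in the window at 8 genes, while Neurod4 has no peak.

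Neurog1 (chr13:56250478-56252180, minus strand, 1 exon) was the only gene of the group without H3K4me3 in LIF-ESCs that held Suz12. In LIF-ESCs no H3K4me3 peak lay within 10 kb, and the nearest was 29.3 kb away. In Myc-ESCs a single H3K4me3 peak covered 2038 bases across the start site, with a score of 73.63 that falls short of a limit of 100. H3K27me3 covered 0 bases in LIF-ESCs, and 737 in Myc-ESCs in 4 peaks, the nearest 892 bp from the start site. Suz12 covered 4227 of the 5001 bases in LIF-ESCs, in 9 peaks of at most 1403 bp, and 4915 bases in Myc-ESCs, in 2 peaks, the longer of 4169 bp. Suz12 alone in LIF-ESCs, with all 3 marks in Myc-ESCs, was found at 58 of all genes, or 0.225%.

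Neurog2 (chr3:127632733-127635636, plus strand, 2 exons), a determination factor of cortical and sensory neurons, held all 3 marks in its window in both cultures. Its H3K27me3 did not overlap H3K4me3 (0 of 313 bases and 0 of 490), so bivalence at the same place was not shown. With a score limit of 100 Neurog2 kept no LIF-ESC H3K27me3 peak, and with windows of 1000 bp it had none in either culture. H3K27me3 covered 313 bases in 2 upstream peaks in LIF-ESCs and 490 bases in 4 peaks in Myc-ESCs, and 2 of the Myc-ESC peaks overlapped the 3' UTR in the last exon. H3K4me3 covered 3175 and 3969 bases, with top scores of 236.07 and 380.33. Suz12 was called in LIF-ESCs as 7 peaks of at most 1261 bp over 4660 bases, and in Myc-ESCs as 1 peak of 6625 bp that filled all 5001 bases of the window. Within 10 kb on either side, a region chosen after the data were seen, the H3K27me3 peaks numbered 2 and 15.

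Atoh1 (chr6:64729125-64731245, plus strand, 1 exon), the determination factor of cerebellar granule cells and hair cells, carried the widest H3K27me3 of the group in both cultures. H3K27me3 covered 725 bases in 3 peaks in LIF-ESCs and 1584 bases in 5 peaks in Myc-ESCs, with top scores of 163.05 and 832.6. The top Myc-ESC peak was 1486 bp long and ran from the 3' UTR past the end of the gene. Of all genes with H3K27me3 in Myc-ESCs, 92.5% had fewer bases covered. Suz12 nearly filled the 5001 bases in both, with 4980 and 4986 bases, longest peaks of 9322 and 8796 bp, and a score of 3100.0. The same 3100.0 was the top Myc-ESC Suz12 score at Neurog1, Neurog2, Neurod2, Olig1 and Olig2. A near-full window and a recurring top score leave little room to show a difference. Within 10 kb on either side, Suz12 covered 10175 and 10557 bases. H3K4me3 covered 3327 and 4450 bases, with scores of 473.39 and 1337.9. Atoh1 thus held broad Suz12 in LIF-ESCs as well, unlike Neurog1 and Neurog2, where Suz12 was called there in short pieces.

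Neurog3 (chr10:62133090-62134763, plus strand, 2 exons) was the 1 gene of the group with H3K27me3 in LIF-ESCs only. In LIF-ESCs it had 2 H3K27me3 peaks, 151 and 140 bp long with scores of 55.06 and 70.9, which covered 270 bases at the far upstream edge of the window. In Myc-ESCs no H3K27me3 peak lay within 10 kb, and the nearest was 60.0 kb away. Suz12 covered 1767 and 2856 bases, in 4 peaks each, with top scores of 608.14 and 1107.24. H3K4me3 covered 2242 and 3200 bases. At Neurog3 18.5% of the H3K27me3 bases lay under Suz12 in LIF-ESCs, with 33.9% at Olig1, 98.1% at Atoh1 and 100% at Neurog2. All 3 marks in LIF-ESCs, with H3K4me3 and Suz12 alone in Myc-ESCs, were found at 67 genes, or 0.260%.

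Neurod1 (chr2:79452637-79456636, minus strand, 2 exons), which drives neuronal and endocrine differentiation, was the only gene of the group at which Suz12 covered fewer bases in Myc-ESCs. Suz12 covered 2314 bases in 7 peaks and 1526 in 5, with top scores of 390.74 and 331.93, the lowest of the 8 genes in each culture. H3K27me3, at 0 bases in LIF-ESCs, covered 265 in Myc-ESCs in 2 peaks, 1 upstream and 1 in the intron. A further 2 H3K27me3 peaks lay over the 3' UTR outside the window, with scores of 122.86 and 59.6. H3K4me3 was the widest of the group in both cultures, 4195 and 4844 bases.

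Neurod2 (chr11:98325415-98329645, minus strand, 2 exons), a factor of maturing cortical neurons, had, in Myc-ESCs, a single H3K27me3 peak of 156 bases in the window, 1024 bp from the start site on the upstream side. It was not without the mark in LIF-ESCs, where a peak of 162 bp with a score of 65.16 lay over the 3' UTR, 2613 bp from the start site and so just outside the window. At the same place, 2604 to 2768 bp downstream, Myc-ESCs had a peak of 165 bp with a score of 80.64, and within 10 kb the peaks numbered 1 and 19. Suz12 covered 2265 bases in LIF-ESCs, starting 236 bp inside the gene, and 2909 in Myc-ESCs, where a peak of 5189 bp reached over the start site. H3K4me3 covered 1939 and 2485 bases, both inside the gene, and its Myc-ESC peak began 16 bp after the start site.

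Neurod4 (chr10:130268152-130280254, minus strand) had no peak of any of the 6 lists within 10 kb of a start site or over its body. The nearest H3K4me3 peak was 131 kb away in both cultures, and the nearest H3K27me3 peak 1345 kb. The nearest Suz12 peak lay at 190 kb in LIF-ESCs and 1345 kb in Myc-ESCs. Within 2500 bp of the start site, 8791 genes, or 34.1%, had none of the 3 marks in either culture. Its promoters were also the poorest in CpG of the 9, as shown above.

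Olig2 (chr16:91225550-91228677, plus strand, 2 exons) and Olig1 (chr16:91269769-91271939, plus strand, 1 exon) lie 44.2 kb apart on the same strand, so their windows do not overlap but their surroundings are shared. At Olig2, H3K27me3 covered 0 bases in LIF-ESCs, and 401 in 2 upstream peaks in Myc-ESCs. Suz12 at Olig2 covered 4589 bases in 4 peaks of at most 1930 bp in LIF-ESCs, and in Myc-ESCs 1 peak of 8209 bp filled all 5001 bases. At Olig1, H3K27me3 was present in both cultures as 1 peak at the end of the gene, which overlapped its last 4 bases in LIF-ESCs and lay just past it in Myc-ESCs, covering 174 bases with a score of 72.04 and 316 bases with a score of 167.1. Suz12 at Olig1 covered 2311 and 2954 bases, with top scores of 1048.29 and 3100.0. H3K4me3 covered 2635 and 3356 bases at Olig1, and 2172 and 2553 at Olig2. Over the 64220 bp from 10 kb before Olig2 to 10 kb after the Olig1 start site, H3K27me3 peaks numbered 1 and 13, over 174 and 2669 bases. Suz12 there had 11 peaks over 11165 bases and 9 peaks over 14061. Between the genes, 22064 to 30649 bp after the Olig2 start site, Myc-ESCs had 1 H3K4me3 peak of 8586 bp where LIF-ESCs had 2 of 2433 and 2983 bp, and no Suz12 or H3K27me3 peak lay there in either culture.

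**Figure D3:**
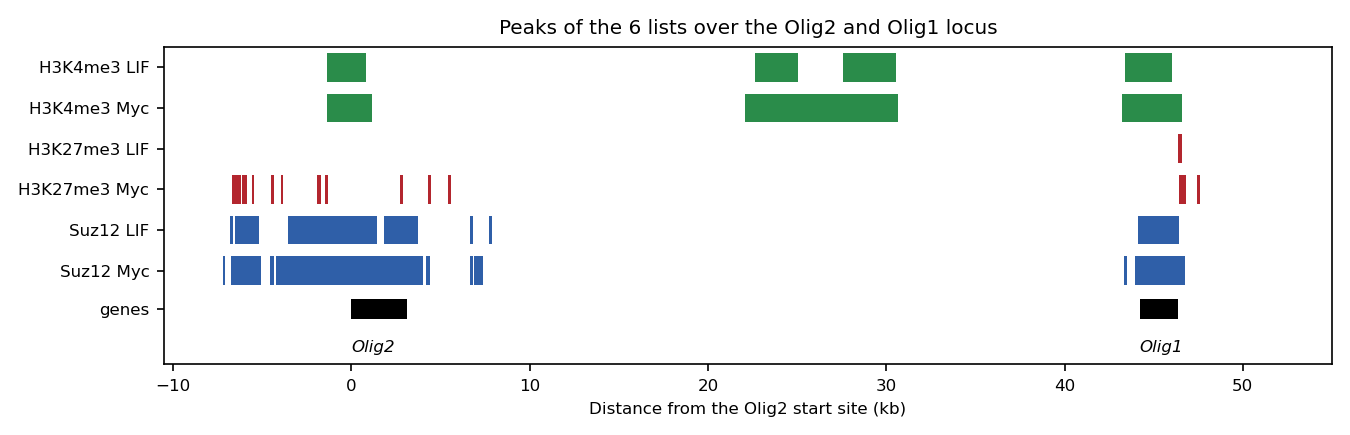
Peaks of the 6 lists (rows) over the locus of Olig2 and Olig1 by distance from the Olig2 start site in kb (x axis), with both genes as black bars and the colours green for H3K4me3, red for H3K27me3 and blue for Suz12. The H3K27me3 row has 1 peak in LIF-ESCs, beside Olig1, and 13 in Myc-ESCs, of which 11 surround Olig2.

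Of the 8 genes with Suz12 in both cultures, 7 had more bases under Suz12 in Myc-ESCs, against 81.3% of 2806 such genes, so this direction was that of the lists at large. Fewer Suz12 peaks over more bases in Myc-ESCs were seen at 4 of 8 (Neurog1, Neurog2, Olig1 and Olig2), against 26.7% of 2806. Together the windows held 37 Suz12 peaks over 27113 bases and 19 peaks over 30148 bases. Suz12 bases were high in both cultures, with a median of 3270.5 over the 8 genes beside 974 over 3137 genes with Suz12 in LIF-ESCs, and 3934.5 beside 1350 over 3792 genes in Myc-ESCs. All 8 lay above the median of all genes in each culture. Atoh1, Neurog2, Olig2 and Neurog1 held the first 4 places in both, with 92.7% to 97.7% of Suz12 genes below them in LIF-ESCs. Neurog3 had the fewest bases in LIF-ESCs and Neurod1 in Myc-ESCs.

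**Figure D4:**
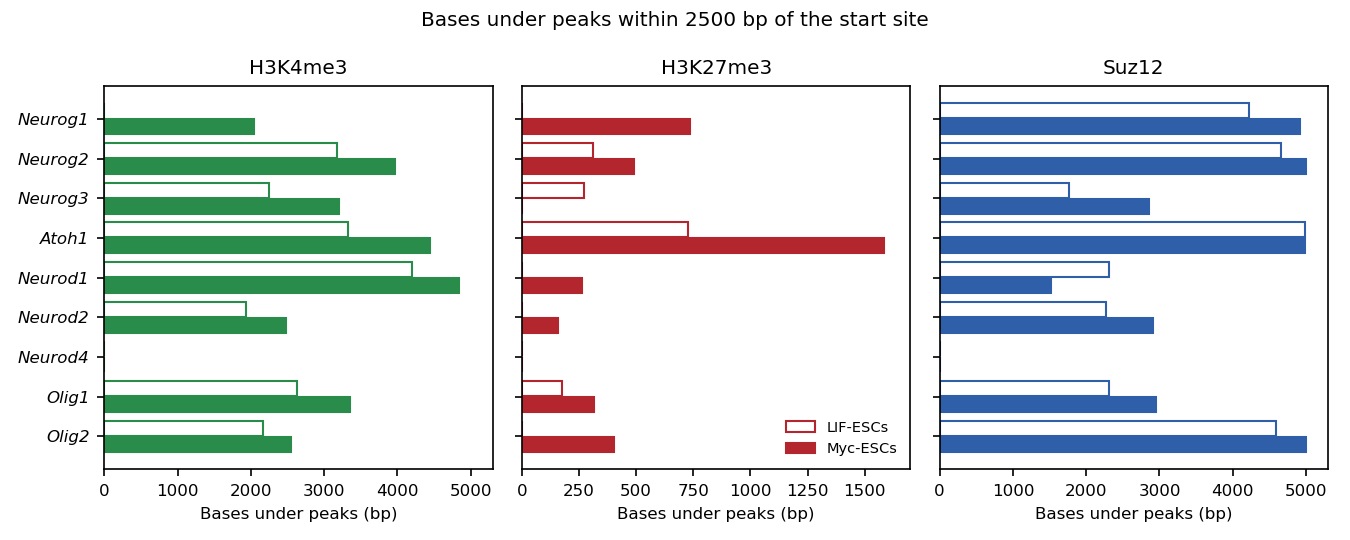
Bases under peaks (bp, x axis) within 2500 bp of the start site of each gene (y axis) for H3K4me3, H3K27me3 and Suz12, with open bars for LIF-ESCs and filled bars for Myc-ESCs, 1 list each and hence no error bars; the H3K27me3 axis is shorter. H3K27me3 bars appear at Neurog1, Neurod1, Neurod2 and Olig2 in Myc-ESCs only and at Neurog3 in LIF-ESCs only.

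H3K4me3 covered more bases in Myc-ESCs at 7 of the 7 genes that had it in both cultures, while 64.9% of 15852 such genes did so. The difference ran from 381 bases at Olig2 to 1123 at Atoh1. The score did not always follow, since it was lower in Myc-ESCs at Neurod1 (481.99 and 406.17) and at Olig1 (860.26 and 622.11). H3K4me3 was weak by score at every one of these genes, with a median top score of 236.07 over 7 genes in LIF-ESCs beside 2020.6 over 16160 genes, and 322.365 over 8 genes in Myc-ESCs beside 1667.31 over 16461. None of them reached the median of all genes in either culture. Scores and peak lengths both depend on depth, which is unknown, so their differences between the cultures carry that limit.

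Of the 8 H3K27me3 peaks of LIF-ESCs in the windows, 0 covered the start site itself, 5 lay upstream and 3 downstream. Of 19 in Myc-ESCs, 0 covered it, 12 lay upstream and 7 downstream. Over all genes 1.92% and 1.55% of H3K27me3 peaks in the windows covered a start site, so this placement was that of the lists at large, whose H3K27me3 peaks had median lengths of 157 and 162 bp. Suz12 differed, with 4 of 37 peaks over the start site in the LIF-ESC list but 8 of 19 in the Myc-ESC list, 1 for each gene with Suz12, beside 16.8% and 20.8% of the Suz12 peaks of all genes. In LIF-ESCs 0 of 1482 H3K27me3 bases at the bHLH genes fell inside an H3K4me3 peak, beside 51.7% over all genes with both marks. In Myc-ESCs 36.2% of 3949 bases did, beside 58.5%, and these lay at Atoh1 (65.2% of its bases), Olig1 (63.9%), Neurod1 (50.6%) and Olig2 (15.0%). Inside Suz12 peaks lay 76.5% and 92.7% of the H3K27me3 bases, beside 69.9% and 69.0% over all genes. The single Neurod2 peak in Myc-ESCs lay outside both, at 0%, and the Neurod1 bases were 50.6% inside Suz12.

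Over all genes, H3K4me3 was at 62.7% and 63.9%, Suz12 at 12.2% and 14.7%, and H3K27me3 at 3.84% and 10.8%. Calls in Myc-ESCs only were at 7.69% of all genes for H3K27me3 and 3.83% for Suz12. The gene lists here and below are to be read beside these shares. Among 8 other neural bHLH genes (Atoh7, Neurod6, Olig3, Bhlhe22, Bhlhe23, Ptf1a, Nhlh1 and Nhlh2), Suz12 was at 6 in both cultures and H3K27me3 at 2 and 3. The gene with H3K27me3 in Myc-ESCs only was Bhlhe23, with 630 bases in 4 peaks. Of 16 bHLH genes of other lineages, H3K27me3 was at 3 and 8, and Myod1, Lyl1, Twist1, Twist2 and Mesp2 had it in Myc-ESCs only. Suz12 was at 8 and 9 of the 16, and Mesp2 alone had it in Myc-ESCs only, in a peak of 156 bases.

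The genes that oppose proneural factors had H3K4me3 in both cultures at 10 of 10 start sites. H3K27me3 was at 3 and 6 of these, with Hes5 (440 bases), Hey1 (477) and Id4 (185) marked in Myc-ESCs only. Hes5, Hey1 and Id4 all held Suz12 without H3K27me3 in LIF-ESCs. Of all 2314 genes in that state, 58.1% had H3K27me3 in Myc-ESCs. Suz12 was at 6 and 9 of the 10 opposing genes, with single-culture calls in both directions. Id3, an inhibitor of E proteins, had 0 and 2867 bases under Suz12, with a top score of 697.69 in Myc-ESCs. Id2 had 905 and 0 bases, with a top score of only 67.36 in LIF-ESCs. Hes1, Heyl and Id1, named after their values were seen, had Suz12 in Myc-ESCs only, over 449, 562 and 384 bases. Their top scores were 80.9, 69.98 and 70.3, all below the limit of 100, as was that of Id2. The 3 E protein genes Tcf3, Tcf4 and Tcf12, whose products pair with the neural bHLH factors, had H3K4me3 in both cultures and H3K27me3 in neither. Tcf12 alone had Suz12, 191 bases with a score of 56.25 in LIF-ESCs.

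Of 9 genes that act downstream of the neural bHLH factors (Dll1, Dll3, Insm1, Hes6, Elavl3, Elavl4, Dcx, Tubb3 and Rbfox3), 8 had H3K4me3 in both cultures and 3 had Suz12 in both. H3K27me3 was at 2 and 4, and Rbfox3, which encodes the neuronal marker NeuN, had it in Myc-ESCs only, over 655 bases in 4 peaks. Hes6 also had it in Myc-ESCs only, over 170 bases without Suz12 in either culture. Of the ESC marker genes, Esrrb and Tfcp2l1 had H3K27me3 in Myc-ESCs only, over 691 and 148 bases, and Klf4 had Suz12 in Myc-ESCs only, over 3264 bases.

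**Figure D5:**
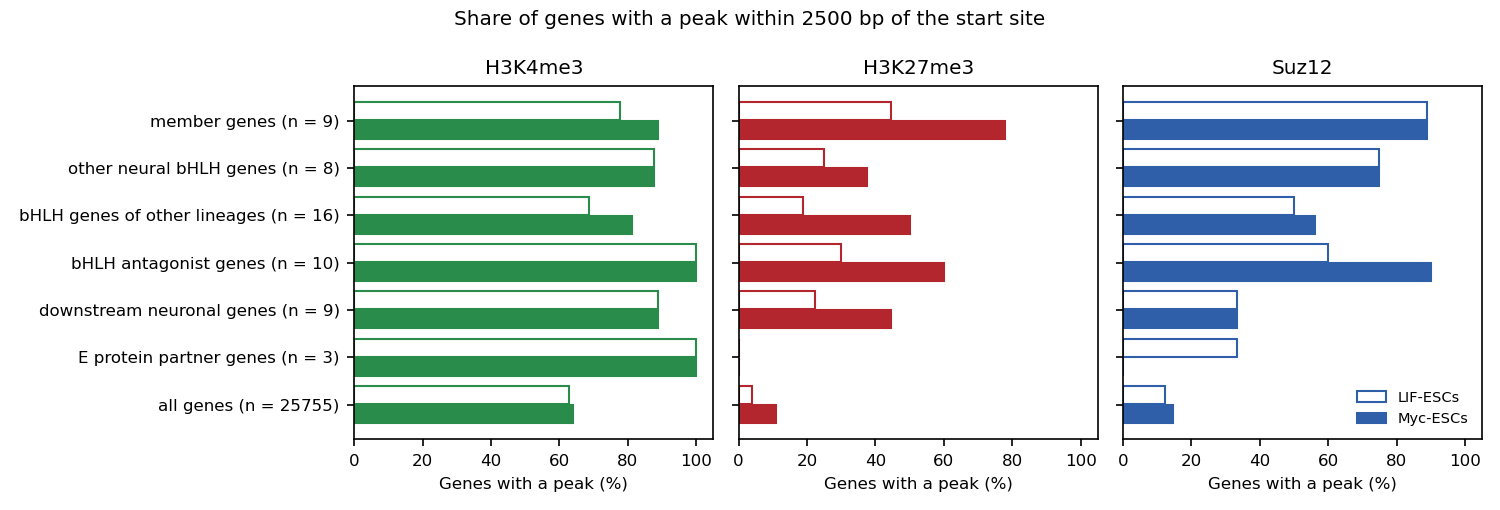
Percentage of genes (x axis) with H3K4me3, H3K27me3 or Suz12 within 2500 bp of the start site, for the 9 bHLH genes (member genes), 5 other gene lists and all 25755 genes (y axis, n in brackets), with open bars for LIF-ESCs and filled bars for Myc-ESCs. Suz12 is at 8 of 9 bHLH genes in both cultures, and H3K27me3 at 4 and 7 of them.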

How the data were processed

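ChIP-seq reads had been aligned by the authors to GRCm38 (mm10) with Bowtie2 2.2.3, unique best matches were kept, and peaks were called with MACS 1.4.2. The authors deposited 6 lists with the position and a score of each peak, a log-scale measure of its p-value that grows with depth and enrichment. Their depth, and whether the paired libraries went into 1 list together, are not given in the sources used here, so no interval or test was possible. Peaks were compared with Python 3.11.15 and numpy 2.4.6, sequences read with pysam 0.24.0 and figures drawn with matplotlib 3.10.9. All peaks lay inside the chromosomes, and the interval code was tested on simulated data, where 0 of 2000 windows differed from a plain loop. A gene held a mark when at least 1 bp of a peak lay within 2500 bp of the start of any of its curated RefSeq transcripts (45302 transcripts, 25755 symbols, without pseudogenes) or, for the body, between its first and last base. Distances run from the outermost start site, and coordinates count from 1.

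The genes, lists and measures were chosen with earlier results of these data known. All 9 genes are named. Of the other lists, genes were named that had H3K27me3 or Suz12 in a single culture, at most 5 a list by bases covered, with exceptions stated. As alternatives, peaks were limited to a score of 100 or more, and lists of equal length, windows of 1000, 5000 and 10000 bp, and peaks counted by their centre were tried.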

Additional observations from a re-analysis of the deposited data

How the results depend on the processing

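At a score limit of 100, H3K27me3 was at 1 of the 9 start sites in LIF-ESCs (Atoh1) and over 1 body there, in 1 peak over 421 bases, and the Myc-ESC windows held 6 peaks over 1981 bases. At the start sites, H3K27me3 then appeared in Myc-ESCs only at Neurog1, Neurog2, Olig1 and Olig2 (3.37% of all genes). It appeared in LIF-ESCs only at 0 (0.0699%), so Neurod1, Neurod2 and Neurog3 lost their start-site call. Over the bodies, Myc-ESC H3K27me3 remained at Neurog2, Atoh1, Neurod1 and Neurod2, both at this limit and with lists of equal length. At that score H3K4me3 was found in Myc-ESCs only at 0 genes, all 3 marks lay at 1 gene and at 4 genes (LIF-ESCs first), and Suz12 had 24 LIF-ESC peaks. With lists of equal length, where the Myc-ESC H3K27me3 list kept 3120 peaks of a score of at least 103.8, its windows held 6 peaks over 1981 bases, and 2 genes, Neurog1 and Olig2, had H3K27me3 in Myc-ESCs only (1.76% of all genes), beside Neurog3 in LIF-ESCs only (2.04%).

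In windows of 1000 bp, H3K27me3 was at 0 genes in LIF-ESCs (0 peaks, 0 bases), and so at 0 in LIF-ESCs only. It was at 3 in Myc-ESCs (Neurog1, Atoh1 and Neurod1, 3 peaks, 286 bases). H3K4me3 then covered 11365 and 14674 bases, and Suz12 11062 bases in 16 peaks and 12879 in 11. In windows of 5000 bp, Myc-ESC H3K27me3 covered 11914 bases in 52 peaks, and Suz12 covered 40780 bases and, in Myc-ESCs, 49262 in 41 peaks. In windows of 10000 bp, an alternative chosen after seeing the data, Myc-ESC H3K27me3 covered 18642 bases in 81 peaks, Suz12 56190 bases in 80 peaks and 69689 in 71, and Myc-ESC H3K4me3 46664 bases in 17 peaks. Neurod2 had H3K27me3 in both cultures at that width, which left 3 genes with it in Myc-ESCs only, as at 5000 bp. Counted by their centres, Suz12 peaks lay over 5 bodies in Myc-ESCs.

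The number of results within 1.5 times the reported value was 21 of 32 at the score limit, 29 of 32 with lists of equal length, 11 of 24 at 1000 bp, 19 of 24 at 5000 bp, 23 of 24 by centre and 16 of 24 at 10000 bp. These numbers compare values alone, so a count could stay the same while its genes changed. That was so for H3K27me3 in Myc-ESCs only at the score limit, where Neurog2 and Olig1 replaced Neurod1 and Neurod2. Suz12 was found in a single culture at 0 of the 9 genes under each alternative. Leaving out a replicate was not run, and no paired analysis was possible because 1 peak list exists per culture and antibody.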
